A study of Caenorhabditis elegans with 11 samples.

Results

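Adult worms held in hyperbaric oxygen were compared with untreated adults of the nematode Caenorhabditis elegans, across every probe set of the Affymetrix GeneChip C. elegans Genome Array. The comparison was set by the labels: the 4 samples labelled as oxidatively stressed without RNA interference (oxygen) and the 4 samples labelled as free of stress (control), 8 of the 11 arrays of the series. The 3 other arrays came from worms with RNA interference against skn-1 under oxygen and entered the fit as a separate group. All groups were whole hermaphrodites, 3 days old, sterile and raised at 25 °C from the first larval stage on peptone plates. Oxygen worms spent 6 hours at 20 °C in a chamber with 99% oxygen at 40 PSI, and control worms, the other portion of the same grown population, were left untreated. The labels name the strain TJ1090 and the design text names TJ1060, a stock known for temperature-sensitive sterility through sperm mutations, and no alleles are listed in either place. The labels give no pressure, temperature or handling for control worms during the exposure, so oxygen, pressure and the move to a cooler temperature cannot be told apart here. Hybridisation and scanning were shared between 2 facilities, and the labels do not say which arrays each of them ran. Per the design text a separate plate of worms carrying a gst-4 reporter served as an indicator of the exposure.

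Oxygen is toxic because part of it is reduced to superoxide and hydrogen peroxide, which oxidise lipids, proteins and DNA. Worms answer such damage in the gut and epidermis largely through SKN-1, the nematode relative of the mammalian Nrf factors, which switches on enzymes of detoxification and glutathione synthesis. Detoxification is usually described in phases: oxidation by cytochromes P450 and related enzymes, conjugation by glutathione S-transferases and UDP-glucuronosyltransferases, and export by ABC transporters. Other stress programmes use the bZIP factor ZIP-2 for infection-like responses, DAF-16 for insulin signalling, HSF-1 for heat shock and XBP-1 for the endoplasmic reticulum.

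The deposited value of a probe set is its MAS5 signal, a linear brightness without unit, and all values below are such signals unless given as log2. Of 22625 probe sets, 15393 were bright enough to test, and 11661 genes were each represented by 1 of them. Total signal was 6863652 to 8205004 on the oxygen arrays and 6877703 to 9138002 on the control arrays. Poly-A spike-in transcripts were bright on oxygen 1 and 2 and control 1 and 2 (set 1, median 96.7 to 167) and dim on oxygen 3 and 4 and control 3 and 4 (set 2, median 6.3 to 15.4). Trimmed mean signal, the mean after removing the lowest and highest 2% of values, was 206 to 216 in set 1 and 249.6 to 249.8 in set 2, so the sets had been scaled differently. No label states this division. Median signal was 35 and 44.5 on oxygen 1 and 2, against 27.4 and 28.5 on control 1 and 2. In set 2 it was 66.9 and 79.1 on oxygen 3 and 4, against 57.4 and 67.5 on control 3 and 4. The 3 skn-1 RNA interference arrays were dim in spike-in signal as well (median 2.6 to 5.2) and were counted with set 2 in the fits. Control 4 had the lowest mean correlation with the other arrays of its group, 0.847 against 0.894 to 0.896 for control 1, 2 and 3. Since each set holds both groups in equal number, the change was also measured with the set as a block and inside each set. Separate cultures are not mentioned for the samples of a group, and p-values then measure the spread between arrays alone, which may be technical. RNA came from whole worms, so fewer cells of a type cannot be told apart from less RNA per cell.

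Among the transcripts tested, far more rose than fell under oxygen. In limma, 507 of the 15393 probe sets were called higher (3.29%) and 83 lower (0.539%) at a Benjamini-Hochberg adjusted p under 0.05, and counted by gene these were 418 (3.58%) and 77 (0.66%). A change of 4-fold or more was fitted for 293 of the raised probe sets but for 27 of the lowered ones, and 16-fold or more for 70 and 3. Among the raised probe sets, 79 lay below the 40th percentile of every control array, which is used here as a stand-in for a detection limit, and 6 of the lowered ones lay below it on every oxygen array. For such probe sets the fold is a lower bound, reckoned against that percentile. The brightness filter for testing counted arrays of every group, and more of these arrays were exposed to oxygen than not. A probe set bright under oxygen alone could thus pass more easily than one bright in control alone. Without a filter 356 probe sets were called higher and 39 lower, and with the 60th percentile filter 526 and 139. The part of the filter in the balance of calls was not tested. Where a called gene had several tested probe sets, as 57 did, every probe set moved in the same direction in 57 of 57 genes. With the set as a block 1137 probe sets rose (7.39%) and 287 fell (1.86%), and all 507 and all 83 were among them. By gene the block gave 7.79% higher and 1.99% lower. Without any test, all oxygen arrays lay above all control arrays in 6.6% of the tested probe sets and below them in 3.75%. Inside set 1 the calls were 278 (1.81%) and 31 (0.201%), and inside set 2 they were 702 (4.56%) and 150 (0.974%). The median of all tested probe sets moved by 0.056, against −0.079 after quantile normalization and −0.306 after median centring, so small changes depend on the scaling. Where a call below ended when arrays were left out singly, each in its turn, those arrays are named. Median centring left 221 higher and 73 lower, which is 75.2% higher among the calls against 85.9% without it, and quantile normalization left 385 and 115, or 77%.

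**Figure D1:**
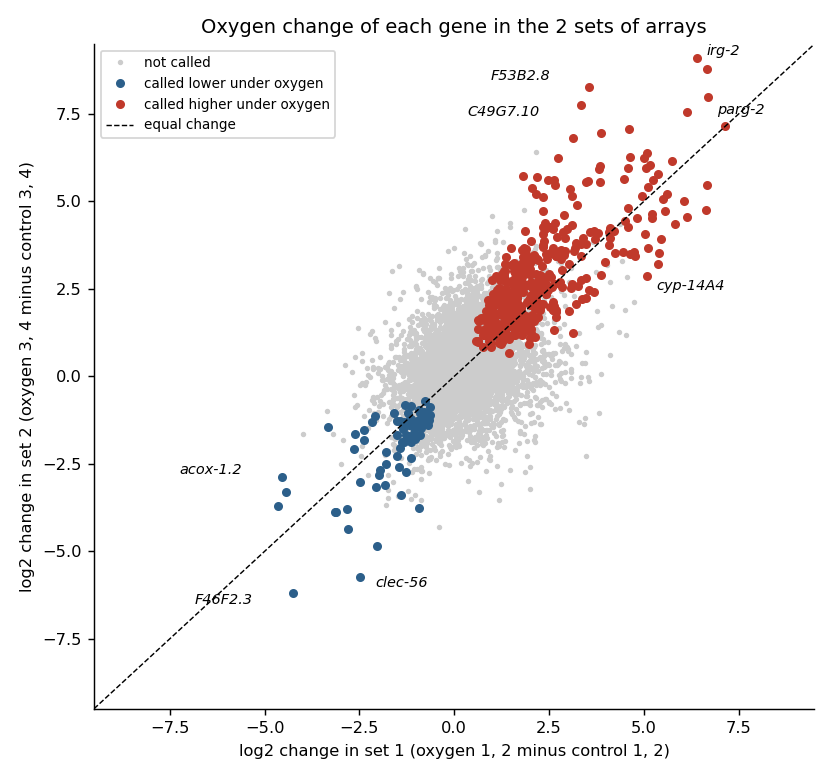
Each point is 1 gene, placed by its log2 change (oxygen minus control) in set 1 on the horizontal axis and in set 2 on the vertical axis. Red points were called higher and blue points lower over all arrays, grey points were not called, and the dashed line marks equal change. All called genes lie in the quadrant of their direction in both sets, partly because both sets entered the calls, and gst-4 lies at 4.08 in set 1 and 3.76 in set 2. Genes with dim controls, such as irg-2, are drawn at fitted values, and their bounds are smaller.

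The indicator gene gst-4, which encodes a glutathione S-transferase, was strongly raised on every oxygen array. Its signals were 4264, 4702, 3978 and 5171 in oxygen arrays 1 to 4, against 211, 332, 774 and 146 in control arrays 1 to 4. The groups did not overlap, and control 3 was the brightest of the controls. The gene rose 15.1-fold (log2 3.92 ± 0.47, adjusted p = 0.0015), with log2 4.08 in set 1 and 3.76 in set 2. The transcript of skn-1 itself was not called changed: its signals were 488, 417, 681 and 455 in oxygen arrays 1 to 4, against 447, 442, 797 and 454 in control arrays 1 to 4, and the groups overlapped (log2 −0.05 ± 0.29, adjusted p = 0.984). Further skn-1 probe sets, 2 in number, gave log2 −0.09 (adjusted p = 0.978) and 0.08 (adjusted p = 0.989).

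Glutathione S-transferases led the response among genes known from other work as SKN-1 targets. Of 22 tested SKN-1 targets, 12 rose and 1 fell (median log2 change 1.66, against 0.05 over all genes), where 3.58% of all genes were called higher and 0.66% lower. Lists here were drawn up with earlier results of these arrays known and carry no test of their own. Calls in each later list are to be set beside the same shares of all genes, 3.58% higher and 0.66% lower. The 13 called members included 8 glutathione S-transferases, and the 1 that fell was cth-1, which makes cysteine from cystathionine. The transferase gst-14 was near the floor of detection in control and rose at least 3.86-fold: its signals were 76.4, 102, 133 and 87.2 under oxygen, against 6.4, 4.1, 9.7 and 4.9 in control. The related gst-30 read 421, 429, 667 and 649 under oxygen, against 17.8, 19.9, 48.6 and 19 in control, and it rose 22.1-fold (log2 4.47 ± 0.36, adjusted p = 0.000171). Both genes showed groups far apart, with the brightest control array at 48.6. The stress-induced gene sdz-8 was at 1040.1, 1122, 1458 and 1672 under oxygen, against 54.1, 61.7, 83.8 and 92.8 in control, a rise of 18.2-fold. The gene F56D5.3, which has no given name, was at 486, 518, 501 and 399 under oxygen, against 18, 8.0, 47.9 and 48.9 in control (log2 4.30 ± 0.51, adjusted p = 0.0015). Its change was 5.39 in set 1 and 3.21 in set 2, with the controls brighter in set 2. The call of cth-1 was lost without oxygen 3 or 4 or control 2 (adjusted p = 0.0515 to 0.0554). After median centring the call of cth-1 (adjusted p = 0.0604) was lost.

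In the oxidation phase a few cytochrome P450 genes moved by large amounts while most did not pass the test. Of 52 tested cytochrome P450 genes, 8 rose and 1 fell (median log2 change 0.21, −0.06 after quantile normalization and −0.15 after median centring, where all genes stood at 0.05, −0.08 and −0.31 in the same fits). The raised members were cyp-14A5, cyp-33C8, cyp-14A4, cyp-13A7, cyp-14A1, cyp-43A1, cyp-42A1 and cyp-37B1, and cyp-25A1 fell. The signal of cyp-14A5 was 2942, 2431, 5395 and 5582 in oxygen arrays 1 to 4, against 65.2, 63, 123 and 80.5 in control arrays 1 to 4. All exposed arrays were far above all controls, a rise of 47.9-fold (log2 5.58 ± 0.37, adjusted p = 8.92e-05). Its relative cyp-14A4 read 227, 179, 119 and 96.6 under oxygen, against 4.1, 8.7, 22.8 and 9.4 in control, so all 4 controls lay below the detection stand-in (at least 5.82-fold, adjusted p = 0.00192). It was brighter in oxygen 1 and 2 than in oxygen 3 and 4. Signals of cyp-33C8 were 1439, 1163, 2756 and 1408 under oxygen, against 23.2, 30.5, 64 and 43.9 in control (log2 5.41 ± 0.42, adjusted p = 0.000156), and those of cyp-43A1 636, 424, 1369 and 1203 under oxygen, against 143, 168, 203 and 175 in control (log2 2.25 ± 0.36, adjusted p = 0.00631). Flavin monooxygenases and aldehyde dehydrogenases, which oxidise drugs and aldehydes, split: of 17 tested members, 1 rose and 2 fell. The monooxygenase fmo-3 fell at least 2.95-fold, at 11.8, 24.2, 34.7 and 23.2 under oxygen, against 94.3, 82.1, 104 and 95.1 in control, whereas fmo-1 rose 3.40-fold (log2 1.77 ± 0.37, adjusted p = 0.0253). The aldehyde dehydrogenase alh-9 fell 2.03-fold (log2 −1.02 ± 0.19, adjusted p = 0.0149). Of 28 tested short-chain dehydrogenase genes, 3 rose and 0 fell. These were dhs-14, dhs-18 and dhs-5, with dhs-14 at 822, 967, 669.8 and 535 under oxygen, against 232, 169, 169 and 79 in control. The call of fmo-1 was lost without oxygen 3 or 4 or control 1 or 2 (adjusted p = 0.0679 to 0.0854). The call of dhs-18 was lost without oxygen 1, 2, 3 or 4 or control 1 or 2 (adjusted p = 0.0507 to 0.0696). The call of dhs-5 was lost without oxygen 1, 3 or 4 or control 1, 2 or 4 (adjusted p = 0.0557 to 0.0787). alh-9 (adjusted p = 0.111), dhs-14 (0.19), dhs-18 (0.353) and dhs-5 (0.265) no longer passed after median centring, and after quantile normalization dhs-5 (0.149), and with the replicate number as a block dhs-5 (0.0647). The paired fit of the 8 arrays alone ended the calls of alh-9 (adjusted p = 0.0722) and dhs-5 (0.0748).

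Conjugating enzymes rose in larger numbers. Of 35 tested glutathione S-transferase genes, 14 rose and 1 fell (median log2 change 1.46, or 0.81 with dim genes at their bound). Besides those above, gst-5, gst-9, gst-12, gst-32, gst-39, gst-6, gst-13, gst-16, gst-38, gst-10 and gst-22 rose, and gst-26 fell. With the set as a block 18 of the 35 rose and 5 fell, where 7.79% and 1.99% of all genes did. The signal of gst-39 was 1393, 1151, 1688 and 1829.5 in oxygen arrays 1 to 4, against 189, 219, 206 and 385 in control arrays 1 to 4, a rise of 6.24-fold with the groups well apart. UDP-glucuronosyltransferases attach sugars to lipophilic molecules, and of 50 of their genes tested, 13 rose and 0 fell (median log2 change 1.16). Of these 50 genes 42 had a positive change. The signals of ugt-29 were 3108, 1869, 3879 and 3468 under oxygen, against 57, 79.3, 70.4 and 44 in control, a rise of 48.6-fold. Those of ugt-26 were 2639, 2795, 2538 and 3388 under oxygen, against 74.6, 72, 124 and 131 in control, also without overlap. The neighbouring genes ugt-19 and ugt-20 both rose, ugt-19 by 33.4-fold at 639, 701, 910.1 and 846 under oxygen, against 20.6, 22.6, 39 and 15.3 in control. The gene ugt-2 read 416, 271, 876 and 964 under oxygen, against 22, 40.9, 42.1 and 8.9 in control (log2 4.53 ± 0.58, adjusted p = 0.00218). In the export phase, of 41 tested ABC transporter genes, 2 rose and 0 fell (median log2 change 0.42). That is 4.88% and 0%, near the 3.58% and 0.66% of all genes. The P-glycoprotein gene pgp-5 was at 473, 267, 1686 and 1464 under oxygen, against 9.1, 13.6, 21.3 and 20.1 in control, with the set 2 oxygen arrays well above those of set 1. The multidrug resistance protein gene mrp-2 read 154, 85.9, 240 and 253 under oxygen, against 44.8, 34.9, 34.6 and 38.9 in control (log2 2.14 ± 0.35, adjusted p = 0.00825). Both its set 2 controls were below the detection stand-in (at least 6.04-fold inside set 2). With median centring, gst-38 (adjusted p = 0.0949) and mrp-2 (0.06) missed the threshold.

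**Figure D2:**
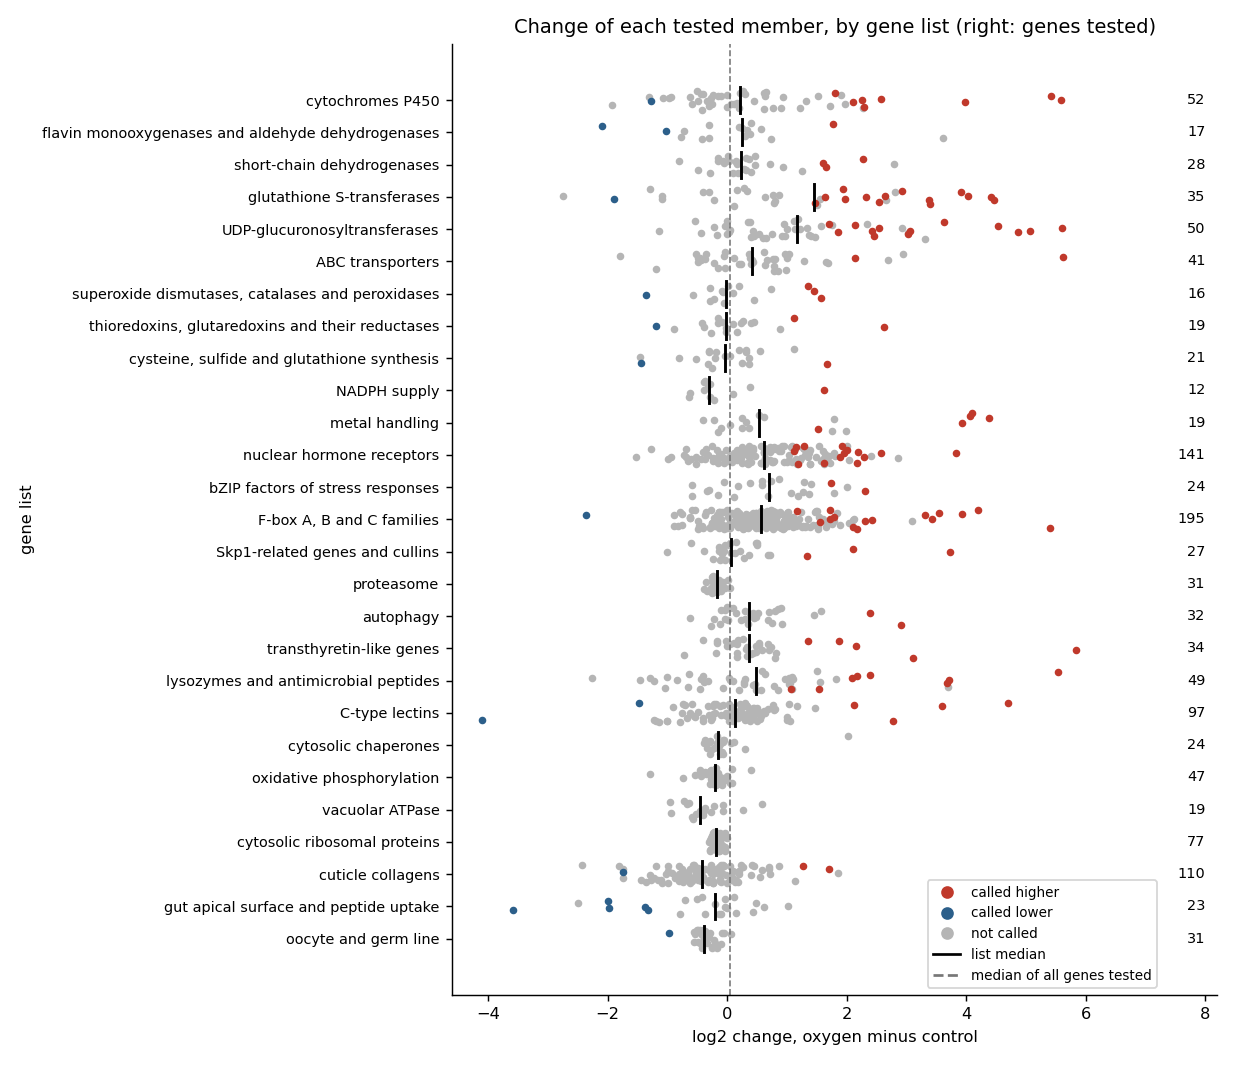
Each point is the log2 change (oxygen minus control, horizontal axis) of 1 tested gene, in rows by gene list, with the number of genes tested at the right. Red points were called higher, blue points lower and grey points neither, the black bar is the list's median and the dashed line is the median of all genes, 0.05. Glutathione S-transferases (1.46) and UDP-glucuronosyltransferases (1.16) have medians well to the right, whereas ribosomal proteins cluster tightly at −0.18.

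Enzymes that remove reactive oxygen directly changed by small factors and in both directions. Of 16 tested superoxide dismutase, catalase and peroxidase genes, 3 rose and 1 fell (median log2 change −0.02). The extracellular superoxide dismutase gene sod-4 was at 209, 244, 284 and 331 under oxygen, against 101, 84.4, 114 and 119 in control, a rise of 2.54-fold (log2 1.35 ± 0.23, adjusted p = 0.0104). The peroxisomal catalase gene ctl-2 rose 2.73-fold, with 1392, 1473, 1324 and 918 under oxygen, against 427, 520.2, 545 and 369 in control. Glutathione peroxidases parted: gpx-7 rose 2.97-fold (183, 152, 158 and 202 under oxygen, against 56.6, 50.9, 53 and 74.7 in control), and gpx-5 fell 2.57-fold (332, 288, 322 and 484 under oxygen, against 903, 678, 626 and 1706 in control). Both peroxidase genes had groups that did not overlap, in opposite directions. Of 19 tested genes of thioredoxins, glutaredoxins and their reductases, 2 rose and 1 fell (median log2 change −0.02). The methionine sulfoxide reductase gene msra-1, whose product repairs oxidised methionine, read 1471, 1432, 1443 and 3038 under oxygen, against 246, 226, 284 and 403 in control, with oxygen 4 far above the other exposed arrays (log2 2.63 ± 0.41, adjusted p = 0.00565). The glutaredoxin gene glrx-10 rose 2.18-fold to 2708 ± 375 under oxygen, against 1252 ± 263 in control (SD, n = 4 each), and the thioredoxin-domain gene txdc-12.1 fell 2.27-fold. The call of gpx-5 was lost without oxygen 1, 2, 3 or 4 or control 1 or 2 (adjusted p = 0.0589 to 0.133). The call of glrx-10 was lost without oxygen 1 (adjusted p = 0.0516). Calls lost after median centring were sod-4 (adjusted p = 0.206), ctl-2 (0.36), gpx-7 (0.182), glrx-10 (0.53) and txdc-12.1 (0.141), and after quantile normalization gpx-5 (0.0503).

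The first step of glutathione synthesis rose while an enzyme that supplies its cysteine fell. Of 21 tested genes of cysteine, sulfide and glutathione synthesis, 1 rose and 1 fell (median log2 change −0.04). The rate-limiting enzyme gene gcs-1 was at 1261, 1175, 1463 and 2206 under oxygen, against 478, 504, 548 and 352 in control and rose 3.18-fold (log2 1.67 ± 0.25, adjusted p = 0.00487), and a further gcs-1 probe set rose by log2 1.65. The gene of cystathionine gamma-lyase, cth-1, was at 106, 139, 103 and 97.9 under oxygen, against 229, 299, 461 and 251 in control and fell 2.70-fold (log2 −1.44 ± 0.27, adjusted p = 0.0163). Of 12 tested genes of NADPH supply, 1 rose and 0 fell: nnt-1, the mitochondrial transhydrogenase that makes NADPH, rose 3.09-fold (124, 116, 131 and 88.1 under oxygen, against 24, 31.7, 65.6 and 36.9 in control). The other 11 members of that list were not called (list median −0.30). The call of cth-1 was lost without oxygen 3 or 4 or control 2 (adjusted p = 0.0515 to 0.0554). The call of nnt-1 was lost without oxygen 1 or 3 or control 1 or 2 (adjusted p = 0.0571 to 0.0707). Scaling by median centring ended the calls of gcs-1 (adjusted p = 0.159) and nnt-1 (0.182), and after quantile normalization nnt-1 (0.113), and with the replicate number as a block nnt-1 (0.0509). Paired by number on the 8 arrays alone, gcs-1 (adjusted p = 0.05) missed the threshold.

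Some metal-handling genes rose by large factors. Of 19 tested metal-handling genes, 5 rose and 0 fell (median log2 change 0.53). The metallothionein gene mtl-1 was at 1057, 669, 1908 and 495 under oxygen, against 39, 63.7, 91.8 and 33.7 in control, a rise of 17.2-fold in which oxygen 3 was the brightest and oxygen 4 the dimmest exposed array. The ferritin gene ftn-1 stores iron and read 885, 830.4, 3727 and 799 under oxygen, against 20.7, 30.2, 148 and 125 in control (log2 4.38 ± 0.72, adjusted p = 0.00813). All exposed arrays lay at 799 or above and all controls at 148 or below. The cadmium-responsive gene cdr-4 rose 15.2-fold (1876, 1576, 2403 and 2773 under oxygen, against 125, 144, 185 and 111 in control), and its relative cdr-2 rose too. The heavy metal tolerance transporter gene hmt-1 rose 2.86-fold (log2 1.52 ± 0.28, adjusted p = 0.0149). Of 8 tested heme trafficking genes, 2 rose and 0 fell: hrg-9 was at 102, 56.2, 124 and 89.5 under oxygen, against 9.1, 12.4, 21.5 and 7.6 in control, and the heme importer gene hrg-1 rose 2.36-fold (log2 1.24 ± 0.27, adjusted p = 0.029). Of 14 tested genes of the oxygen-sensing HIF-1 pathway and its targets, 1 was called (7.14%), ftn-1, which the metal list also holds. The call of hmt-1 was lost without oxygen 3 or 4 or control 1 or 2 (adjusted p = 0.0503 to 0.0538). The call of hrg-1 was lost without oxygen 1, 2, 3 or 4 or control 2 or 4 (adjusted p = 0.0502 to 0.088). hmt-1 (adjusted p = 0.112) and hrg-1 (0.436) no longer passed after median centring, and with the replicate number as a block hrg-1 (0.0698). With the number as a block on the 8 arrays alone, hrg-1 (adjusted p = 0.0674) lost the call.

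The 20 largest called increases, taken by fitted change, held the infection response genes irg-1 and irg-2, detoxification genes described above and 10 genes that carry a sequence name alone. In 8 of the 20 all controls were below the detection stand-in, so the place of those 8 in the order was not measured. The controls of set 2 were also below it for parg-2, F53B2.8 and ttr-23, and those of set 1 for Y58A7A.4 and oac-14. Fitted changes of these genes, and so their places, rest partly on dim signals. The gene irg-2, one of a group that rises when worms meet pathogens, was at 776, 672, 3372 and 2923 in oxygen arrays 1 to 4, against 10.1, 7.3, 4.7 and 7.1 in control arrays 1 to 4. No control array exceeded 10.1, so the rise was at least 59.7-fold, or at least 46.3-fold inside set 1 and 77.0-fold inside set 2 (log2 7.74 ± 0.58, adjusted p = 0.00014). Next was C06B3.7 at 976, 689, 1900.4 and 2392 under oxygen, against 6.4, 10.3, 17 and 1.4 in control, a rise of at least 52.4-fold. The gene parg-2, whose product removes poly(ADP-ribose) chains from proteins, was at 2278, 1688, 3097 and 2992 under oxygen, against 17.5, 20.8, 31.9 and 4.5 in control (log2 7.34 ± 0.56, adjusted p = 0.000142). Inside set 2, where both controls were dim, its rise was at least 74.6-fold. The 4 other tested genes of poly(ADP-ribose) turnover were not called. For F35E12.4 the oxygen arrays spread widely, at 164, 78.9, 1045 and 385 under oxygen, against 1.1, 0.6, 4.9 and 4.1 in control, and the controls were all at the bottom of the scale (at least 10.6-fold). A known target of ZIP-2, irg-1, read 665, 440.3, 1396 and 1073 under oxygen, against 4.8, 12.4, 13.3 and 3.2 in control (at least 32.3-fold). Of 8 tested infection response genes, 2 rose and 0 fell (25% and 0%, against 3.58% and 0.66% of all genes), irg-1 and irg-2 being the calls. Signals of C06E4.3 were 460.1, 471, 386 and 611 under oxygen, against 11.8, 1.8, 31.3 and 3.8 in control (at least 18.8-fold). Those of W06H8.2 were 232, 173, 483 and 506 under oxygen, against 1.6, 8.6, 8.2 and 5.9 in control (at least 12.5-fold), and in neither gene did the groups come near each other. Oxygen 3 and 4 were both brighter than oxygen 1 and 2 in 17 of these 20 genes (85%), and in 48.7% of all probe sets tested. The gene F14F9.3 (at least 3.96-fold, at 60.4, 48.8, 297 and 114 under oxygen, against 0.5, 0.6, 1.7 and 27.4 in control) and oac-14, of an acyltransferase family (log2 5.51), were the members of the 20 whose calls depended on single arrays. The call of F14F9.3 was lost without oxygen 3 or 4 or control 1, 2 or 3 (adjusted p = 0.0519 to 0.0754). The call of oac-14 was lost without oxygen 3 or 4 (adjusted p = 0.0552 and 0.0525).

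**Figure D3:**
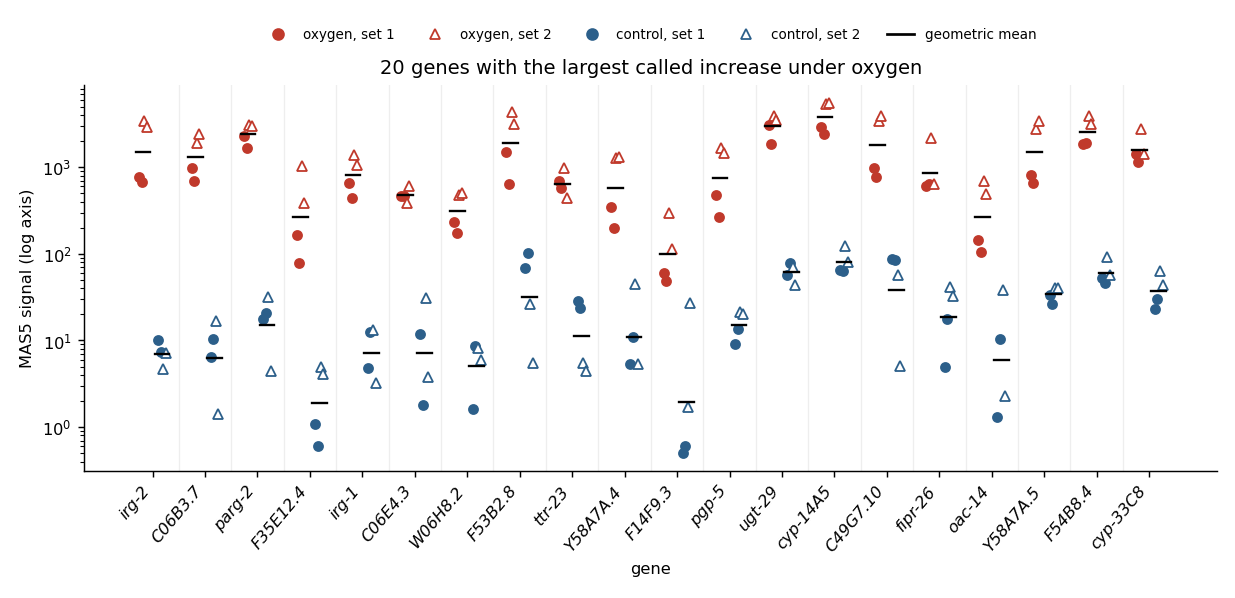
Signals (vertical log axis) of the 20 genes with the largest called increase, in falling order from the left, with each gene's 4 oxygen arrays (red) left of its 4 control arrays (blue). Filled circles are set 1, open triangles are set 2 and black bars are geometric means. The groups do not overlap for any of the 20, and parg-2 has 1688 to 3097 under oxygen and 4.5 to 31.9 in control.

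Some raised genes lay next to each other on the chromosomes. In the gene order of assembly WBcel235, 53 of 412 placed raised genes (12.9%) had a directly adjacent raised gene, as did 4.16% of the 11375 placed genes, a difference that was not tested. None of the 75 placed lowered genes had a lowered neighbour (0%, against 0.862%). The longest run was dod-22, F55G11.2, mbug-1 and dod-17, with log2 changes of 1.64 to 3.06. Signals of F55G11.2, which encodes a CUB-like domain protein, were 613, 467, 712 and 520.2 under oxygen, against 49.4, 42.4, 236 and 51.9 in control, and control 3 was the brightest control. Beside irg-2 lay C49G7.10 and beyond it C49G7.12. The first was at 989, 768, 3448 and 3904 under oxygen, against 86.4, 84.8, 56.5 and 5.1 in control. The gene C49G7.12 was at 459.9, 308, 1459.7 and 1131 under oxygen, against 9.1, 27, 15.4 and 27.6 in control. A run of 3 was Y58A7A.3, Y58A7A.4 and Y58A7A.5, and Y58A7A.4 was at 345, 197, 1288 and 1303 under oxygen, against 5.4, 11.1, 44.7 and 5.3 in control. The gene Y58A7A.3 read 1638, 1342, 4103 and 5259 under oxygen, against 94.9, 112, 125 and 41.7 in control. In C49G7.10, C49G7.12, Y58A7A.3 and Y58A7A.4 the set 2 oxygen arrays were brighter than those of set 1. The third run of 3 was gst-14, gst-12 and gst-16. Adjacent genes can be copies of each other, and 2 of the Y58A7A probe sets and 1 of the gst run are of a type that can bind several transcripts, so their signals may be shared. The call of dod-22 was lost without oxygen 2 or 4 or control 1 or 2 (adjusted p = 0.0509 to 0.0683). The call of dod-17 was lost without oxygen 1, 2, 3 or 4 or control 1, 2 or 4 (adjusted p = 0.0541 to 0.087). With median centring, dod-22 (adjusted p = 0.137) and dod-17 (0.0605) missed the threshold, and after quantile normalization dod-22 (0.061), and with the replicate number as a block dod-17 (0.0601). The paired fit of the 8 arrays alone ended the call of C49G7.10 (adjusted p = 0.0706).

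Some increases concerned abundant transcripts. By the difference in mean signal, a measure that favours bright probe sets, the 10 leading genes among those called higher were hpd-1, gst-4, dap-1, cyp-14A5, F45D3.4, mbf-1, cpr-1, lec-6, ugt-29 and Y58A7A.3. The signal of hpd-1, of tyrosine breakdown, was 5123, 5369.6, 6646 and 8599.9 under oxygen, against 1462, 1791, 2414 and 1732 in control, a rise of 3.46-fold (log2 1.79 ± 0.25, adjusted p = 0.00346). That of the transcriptional coactivator gene mbf-1 was 4452, 3972, 5205 and 5186 under oxygen, against 1341, 1113, 698 and 935 in control and rose 4.71-fold. The uncharacterised F45D3.4 was at 2898, 2929.9, 4856 and 4629 under oxygen, against 102, 167, 125 and 71.2 in control, a rise of 33.6-fold, and a further probe set of it rose by log2 3.93. For dap-1, named for a death-associated protein, control 4 stood low (4230.4, 4399.9, 6737 and 6788 under oxygen, against 1834, 1800.2, 1544 and 511 in control), and without control 4 the change was log2 1.65. Of 13 tested cathepsin-like protease genes, 2 rose and 0 fell. The cathepsin B-like gene cpr-1 of the gut read 5122, 4597, 5875 and 8127 under oxygen, against 2410.1, 2101, 2456 and 2942 in control, and cpr-4 2258, 2402, 1892 and 2615 under oxygen, against 804, 1047, 349 and 758 in control. The galectin gene lec-6 rose 1.88-fold, to 6509.7 ± 1149.6 under oxygen, against 3467 ± 702 in control (SD, n = 4 each). Its controls were all below its exposed arrays. The call of dap-1 was lost without oxygen 3 or 4 (adjusted p = 0.0779 and 0.0734). The call of lec-6 was lost without oxygen 1, 2, 3 or 4 or control 1, 2 or 3 (adjusted p = 0.0818 to 0.139). The call of cpr-4 was lost without oxygen 4 (adjusted p = 0.0504). Calls lost after median centring were hpd-1 (adjusted p = 0.0617), dap-1 (0.226), mbf-1 (0.092), cpr-1 (0.276), lec-6 (0.509) and cpr-4 (0.298). Paired by number on the 8 arrays alone, dap-1 (adjusted p = 0.0845) missed the threshold.

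Among regulators, several nuclear hormone receptors, ligand-gated transcription factors, rose and none fell. Of 141 tested nuclear hormone receptor genes, 14 rose and 0 fell (9.93% and 0%, against 3.58% and 0.66% of all genes, median log2 change 0.62). With the set as a block 35 rose, where 7.79% of all genes did. The receptor gene nhr-115 was at 103, 71.3, 232 and 219.9 under oxygen, against 5.4, 7.9, 15.6 and 14 in control, all controls below the detection stand-in (at least 5.52-fold, adjusted p = 0.00245). The receptor gene nhr-61 read 325, 455, 583 and 319.8 under oxygen, against 102, 87.5, 95.8 and 78.3 in control, a rise of 4.50-fold. Smaller were nhr-176 (log2 2.01, with both set 2 controls below the detection stand-in) and nhr-22 (log2 1.28, 131, 198, 205 and 199.5 under oxygen, against 68.7, 79.8, 74.1 and 75.5 in control). Of 24 tested bZIP factor genes, 2 rose and 0 fell (median log2 change 0.70, 9 rising with the set as a block). The gene zip-2, the factor behind irg-1, was at 985, 845, 3065 and 2678 under oxygen, against 182, 244, 619 and 414 in control (log2 2.31 ± 0.50, adjusted p = 0.0305). Both oxygen and control arrays of set 2 were brighter than those of set 1, and the gap inside each set was log2 2.11 and 2.50. The gene zip-10 rose 3.33-fold (215, 227, 419 and 327 under oxygen, against 47.5, 65.7, 158 and 111 in control). For xbp-1, the transcript had 989, 887, 3833 and 4525 under oxygen, against 578, 598, 942 and 1049 in control, which was not called (log2 1.37 ± 0.53, adjusted p = 0.246), whereas the set block gave an adjusted p of 0.0125. Of 18 genes placed upstream of SKN-1 in earlier work 2 rose: tir-1, the adaptor above the p38 cascade, was at 470.2, 439.7, 778 and 767 under oxygen, against 142, 132, 224 and 238 in control, and the NIMA-related kinase gene nekl-2 rose 2.24-fold. The other probe set of tir-1 was not called (log2 1.73, adjusted p = 0.0519). The JNK-like kinase gene kgb-2 was near the floor on both set 2 controls, with 68.2, 61.4, 248 and 177 under oxygen, against 19.8, 17, 6.8 and 2.3 in control. None of 16 genes of the insulin pathway to DAF-16 was called by its representative probe set. For the kinase gene akt-2 that probe set gave log2 1.47 (adjusted p = 0.177, or 0.0072 under the set block), whereas its other probe set rose, with log2 1.57 (adjusted p = 0.0223). Of 19 insulin-like peptide genes 1 rose, ins-4, at least 1.84-fold. The call of zip-2 was lost without oxygen 3 or 4 or control 1, 2 or 4 (adjusted p = 0.0501 to 0.0932). The call of zip-10 was lost without oxygen 1, 2, 3 or 4 or control 1 or 2 (adjusted p = 0.0517 to 0.116). The call of tir-1 was lost without oxygen 3 or 4 or control 1 or 2 (adjusted p = 0.062 to 0.0663). The call of nekl-2 was lost without any 1 of the 8 arrays (adjusted p = 0.0573 to 0.107). Scaling by median centring ended the calls of nhr-61 (adjusted p = 0.0622), nhr-176 (0.182), nhr-22 (0.299), tir-1 (0.0605), nekl-2 (0.481), kgb-2 (0.0605) and ins-4 (0.0722), and after quantile normalization nhr-176 (0.224), nekl-2 (0.142), kgb-2 (0.0726) and ins-4 (0.0762), and with the replicate number as a block nekl-2 (0.0522). With the number as a block on the 8 arrays alone, nekl-2 (adjusted p = 0.0785), kgb-2 (0.093) and ins-4 (0.0703) lost the call.

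**Figure D4:**
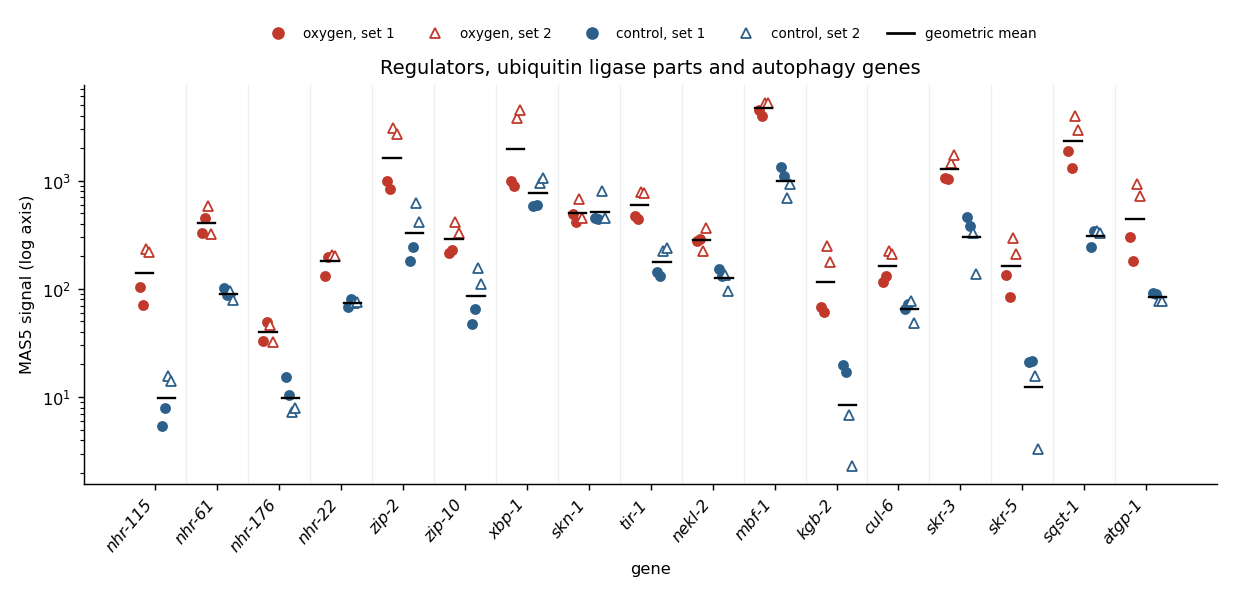
Signals (vertical log axis) of 17 regulators, ubiquitin ligase parts and autophagy-list genes, with each gene's 4 oxygen arrays (red) left of its 4 control arrays (blue), filled circles for set 1, open triangles for set 2 and black bars for geometric means. All but skn-1 and xbp-1 were called higher under oxygen, skn-1 overlaps between the groups, and sqst-1 has 1322 to 3982 under oxygen and 245 to 343 in control.

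Some adaptors that choose proteins for ubiquitination rose, and no gene of the proteasome was called. F-box proteins of the A, B and C families are substrate adaptors of Skp1-cullin ubiquitin ligases. Of 195 of their genes tested, 15 rose and 1 fell (median log2 change 0.57, 0.25 after quantile normalization and 0.21 after median centring). The largest was fbxc-58, with 545, 412, 1728 and 1795 under oxygen, against 31.7, 33.4, 31.8 and 6.4 in control, where control 4 stood below the other controls (log2 5.41 ± 0.69, adjusted p = 0.002). The gene fbxa-79 was at 103, 102, 341 and 246 under oxygen, against 21.1, 7.2, 9.9 and 5.1 in control. The gene fbxa-60 was at 603, 473, 1205 and 1213 under oxygen, against 87.4, 126, 78 and 50.6 in control, without overlap in either. Both set 2 controls of fbxc-58 and fbxa-79 were below the detection stand-in, and their rises inside set 2 were at least 43.2-fold and 7.11-fold. The exception was fbxa-72, which fell 5.15-fold (39.9, 33, 25.9 and 63.7 under oxygen, against 252, 203, 182 and 164 in control). Of 27 tested Skp1-related and cullin genes, 3 rose and 0 fell (11.1% and 0%, median log2 change 0.06, −0.30 after median centring). The Skp1-related skr-5 read 135, 84.8, 295 and 211 under oxygen, against 21, 21.5, 15.7 and 3.3 in control. Both set 2 controls of skr-5 were below the detection stand-in, and its rise inside set 2 was at least 6.11-fold. Its relative skr-3 read 1049, 1031, 1446 and 1723 under oxygen, against 458, 379, 331 and 138 in control. The cullin gene cul-6, a partner of skr-5 and skr-3 in the response to intracellular pathogens, rose 2.54-fold (log2 1.34 ± 0.28, adjusted p = 0.024). None of 31 proteasome genes was called and 2 of 31 had a positive change (median −0.17, largest 0.05). With 3.58% of all genes called higher and 0.66% lower, a list of 31 can hold no call without standing out. Of 32 genes in the autophagy list, sqst-1, the cargo receptor p62, rose 7.47-fold (1872, 1322, 3982 and 2946 under oxygen, against 245, 343, 339 and 327 in control), and a further probe set of it rose by log2 3.23. The other call of that list was atgp-1, which by its function is a subunit of amino acid transporters and entered the list through its name (302, 181, 932 and 718 under oxygen, against 90.8, 89.6, 76.8 and 77.9 in control). No gene was called among 24 cytosolic chaperones, 24 genes of the endoplasmic reticulum and 19 of the mitochondrial unfolded protein response, with medians of −0.15, −0.08 and 0.11. Of 10 small heat shock protein genes 1 was called, hsp-16.20, which rose at least 2.07-fold at 38.6, 48.3, 56 and 71.2 under oxygen, against 14.1, 8.3, 23.2 and 7.7 in control. The call of cul-6 was lost without oxygen 3 or 4 or control 1 or 2 (adjusted p = 0.0576 to 0.0772). The call of atgp-1 was lost without oxygen 4 (adjusted p = 0.0529). skr-3 (adjusted p = 0.177), cul-6 (0.317) and hsp-16.20 (0.0747) no longer passed after median centring, and after quantile normalization skr-5 (0.0503), cul-6 (0.117) and hsp-16.20 (0.0726). The paired fit of the 8 arrays alone ended the calls of skr-5 (adjusted p = 0.0583), skr-3 (0.0755), cul-6 (0.0718), atgp-1 (0.0707) and hsp-16.20 (0.0525).

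Secreted defence proteins rose in part. Of 49 tested lysozyme and antimicrobial peptide genes, 8 rose and 0 fell (16.3% and 0%, against 3.58% and 0.66% of all genes, median log2 change 0.48). Among the raised were the adjacent invertebrate lysozyme genes ilys-2 and ilys-3. The signal of ilys-2 was 188, 118, 438 and 272 under oxygen, against 17.4, 17.4, 7.9 and 38 in control. Both its set 2 controls were below the detection stand-in (at least 8.45-fold inside set 2). The antimicrobial peptide gene cnc-4 read 1795, 2435, 2554 and 862 under oxygen, against 159, 247, 258 and 35.9 in control, with control 4 and oxygen 4 the lowest of their groups. The gene fipr-26, of a family named for induction by fungi, read 604, 640.2, 2186 and 643 under oxygen, against 4.9, 17.9, 41.7 and 32.6 in control. Of 97 tested C-type lectin genes, 4 rose and 2 fell (median log2 change 0.13, −0.14 after quantile normalization and −0.23 after median centring): clec-3, clec-47, clec-67 and clec-265 rose, and clec-56 and clec-1 fell. The lectin gene clec-67 was at 1107, 834, 999.6 and 1241 under oxygen, against 174, 254, 66.4 and 180.2 in control, and clec-47 at 264, 136, 539 and 747 under oxygen, against 35.8, 16, 28.1 and 42.1 in control. Both set 2 controls of clec-47 were below the detection stand-in (at least 15.5-fold inside set 2). Of 34 tested transthyretin-like genes, 5 rose and 0 fell (14.7% and 0%, median log2 change 0.37). Signals of ttr-23 were 696, 582, 983 and 441 under oxygen, against 28.2, 23.8, 5.5 and 4.4 in control. Of 8 tested dod genes, 3 rose and 0 fell, a family named for being downstream of DAF-16, and the calls were dod-3, dod-17 and dod-22. Exposed arrays of ttr-26 ranged over 199 to 577, against 21.9 to 53.7 in control. In the pals family, known from infection by intracellular parasites, 1 of 8 tested genes rose, pals-23, and 15 further members on the array were too dim to test. Neuropeptide genes gave 2 calls in 69, nlp-16 and nlp-81 (2.9%, below the 3.58% of all genes called higher). Signals of nlp-16 were 47.2, 44.5, 53.6 and 71.5 under oxygen, against 13.5, 24.2, 21.8 and 19.1 in control, with both set 2 controls below the detection stand-in. The other probe set of nlp-16 was not called (log2 0.74, adjusted p = 0.618), and nlp-81 was at least 2.01-fold higher. The call of clec-56 was lost without oxygen 4 (adjusted p = 0.0525). The call of dod-17 was lost without oxygen 1, 2, 3 or 4 or control 1, 2 or 4 (adjusted p = 0.0541 to 0.087). The call of dod-22 was lost without oxygen 2 or 4 or control 1 or 2 (adjusted p = 0.0509 to 0.0683). The call of pals-23 was lost without oxygen 3 or 4 or control 2 (adjusted p = 0.0635 to 0.0782). The call of nlp-16 was lost without oxygen 1, 3 or 4 or control 1 (adjusted p = 0.0503 to 0.0759). With median centring, cnc-4 (adjusted p = 0.0628), clec-67 (0.0617), clec-265 (0.0989), pals-23 (0.0746), nlp-16 (0.237) and nlp-81 (0.105) missed the threshold, and after quantile normalization pals-23 (0.067), nlp-16 (0.203) and nlp-81 (0.141), and with the replicate number as a block nlp-16 (0.0544). Paired by number on the 8 arrays alone, clec-56 (adjusted p = 0.0546) and pals-23 (0.0688) missed the threshold.

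Decreases were fewer and included genes of nutrient uptake in the gut. Of 23 tested genes of the gut apical surface and peptide uptake, 0 rose and 5 fell, against 0.66% of all genes called lower. The gene act-5, the actin of gut microvilli, was at 523, 393, 281 and 563 under oxygen, against 1105, 1092, 2064 and 3324 in control and fell 3.99-fold (adjusted p = 0.0309). The peptide transporter gene pept-1 read 40, 72.2, 10.8 and 105 under oxygen, against 351, 398, 579 and 819.9 in control, and the sodium/proton exchanger gene nhx-2, which works with it, 27, 34.2, 26.9 and 25.4 under oxygen, against 92.7, 119.8, 142 and 97.9 in control. Neither overlapped between the groups. The signals of nhx-2 were uniform on the exposed arrays, and both set 2 oxygen arrays were below the detection stand-in (a fall of at least 2.48-fold inside set 2). The water channel gene aqp-4 fell 2.51-fold (47.5, 58.6, 77.7 and 104 under oxygen, against 179, 142, 185 and 189 in control), and the intermediate filament gene ifd-1 fell too. Of 18 intestine markers tested, 3 rose (cpr-1, gem-4 and lys-8) and 3 fell (act-5, nhx-2 and pept-1), and their summed signal was 34005 to 47112 on oxygen arrays and 27907 to 47274 on control arrays. The call of act-5 was lost without oxygen 1, 2, 3 or 4 or control 3 or 4 (adjusted p = 0.0564 to 0.101). The call of aqp-4 was lost without oxygen 1, 2 or 3 or control 1 (adjusted p = 0.0502 to 0.0621). After median centring the call of gem-4 (adjusted p = 0.065) was lost. With the number as a block on the 8 arrays alone, act-5 (adjusted p = 0.053) lost the call.

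Metabolic genes moved in both directions. Of 23 tested genes of peroxisomal beta-oxidation, 1 rose and 1 fell, and of 67 tested genes of fatty acid activation, synthesis and desaturation, 5 rose and 1 fell. The acyl-CoA oxidase gene acox-1.2, of peroxisomal fatty acid shortening, was at 14.9, 3.7, 24.6 and 23.1 under oxygen, against 145, 207, 238 and 129.9 in control, a fall of at least 5.51-fold (log2 −3.71 ± 0.59, adjusted p = 0.00633). The acyl-CoA synthetase gene acs-5 fell 2.63-fold (168, 184, 183 and 202 under oxygen, against 502, 499.5, 446 and 484 in control), whereas 5 other acs genes rose, among them acs-16 (at least 1.71-fold) and acs-17 (3.08-fold). Of 15 genes of trehalose and glycerol metabolism, the trehalase gene tre-2 fell 2.76-fold (193, 139.7, 146 and 159 under oxygen, against 386, 374, 359 and 696 in control), and the glycine cleavage gene gcsh-1 fell at least 3.41-fold (13.2, 11.1, 2.7 and 20.2 under oxygen, against 101, 113, 95.2 and 125 in control). Among abundant transcripts, pmt-2, which makes phosphocholine for membranes, was at 2147, 2249.8, 1801 and 1927 under oxygen, against 4266, 4148, 3554 and 5754 in control. Signals of the acid phosphatase gene acp-6 were 554, 759, 593 and 507 under oxygen, against 3778, 3433, 4004 and 5012 in control, a fall of 6.74-fold (log2 −2.75 ± 0.30, adjusted p = 0.000885). The hedgehog-related grd-3 and dct-18 fell 4.07-fold and 4.96-fold, and the lectin clec-1 fell 2.78-fold. The largest fall was that of F46F2.3, with 60.5, 120, 38.2 and 66.3 under oxygen, against 1751, 1485, 2804 and 4909 in control (log2 −5.22 ± 0.72, adjusted p = 0.00282). The gene R07E5.4 was at 16.1, 36.5, 42.7 and 56.2 under oxygen, against 633, 582, 528 and 775 in control. The gene Y48E1B.8 was at 18.1, 27.4, 49.5 and 77.1 under oxygen, against 549, 417, 465 and 809.9 in control, and for both all exposed arrays lay far below all controls. Signals of ZK512.7 (log2 −3.50 ± 0.27, adjusted p = 0.000156) were 112, 135, 55.3 and 102 under oxygen, against 1185, 955, 1069 and 1157 in control. The call of acs-16 was lost without oxygen 2, 3 or 4 or control 1, 2 or 3 (adjusted p = 0.0519 to 0.0974). The call of acs-17 was lost without oxygen 3 or 4 or control 1 or 2 (adjusted p = 0.0648 to 0.0699). The call of gcsh-1 was lost without oxygen 3 or control 1, 2 or 4 (adjusted p = 0.0514 to 0.0657). The call of pmt-2 was lost without oxygen 3 (adjusted p = 0.0528). Calls lost after median centring were acs-5 (adjusted p = 0.0518), acs-17 (0.0746), pmt-2 (0.116) and grd-3 (0.0605), and with the replicate number as a block acs-16 (0.051). The paired fit of the 8 arrays alone ended the calls of acs-16 (adjusted p = 0.0679) and pmt-2 (0.0506).

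**Figure D5:**
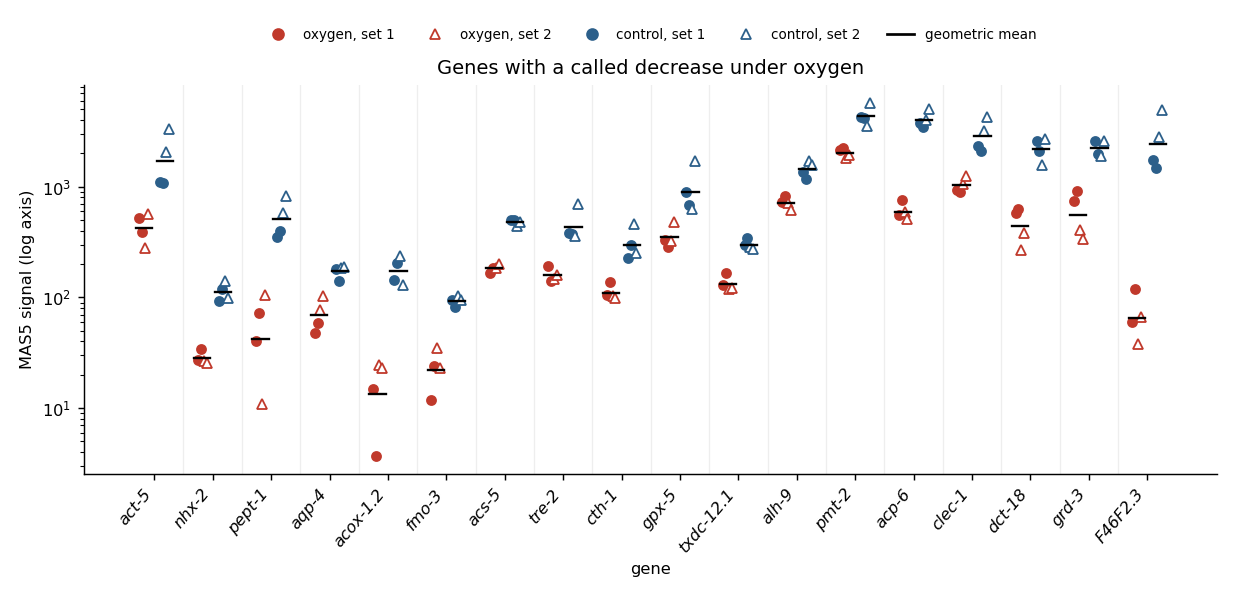
Signals (vertical log axis) of 18 genes called lower under oxygen that the text describes or lists, with each gene's 4 oxygen arrays (red) left of its 4 control arrays (blue), filled circles for set 1, open triangles for set 2 and black bars for geometric means. Exposed arrays lie below all controls for each gene, and nhx-2 has 25.4 to 34.2 under oxygen and 92.7 to 142 in control.

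In large housekeeping families few genes or none were called. Of 77 cytosolic ribosomal protein genes 0 had a positive change, yet none was called and the median was −0.18 (0.01 after quantile normalization). Vacuolar ATPase genes, whose pump acidifies lysosomes and the gut lumen, had a median of −0.46 over 19 genes, with 0 called and 4 lower with the set as a block. The subunit gene vha-20 was at 865, 898, 988 and 891 under oxygen, against 1307, 1329, 1408 and 1673 in control (log2 −0.65, adjusted p = 0.0774, or 0.02 under the set block). Medians were −0.20 over 47 oxidative phosphorylation genes, −0.29 over 58 mitochondrial ribosomal proteins, −0.22 over 37 replication genes, −0.09 over 33 DNA repair genes and −0.15 over 33 histones, all with 0 called. With the set as a block 3 histone genes rose and 2 fell, and 3 mitochondrial ribosomal protein genes fell, where 7.79% of all genes rose and 1.99% fell. Of 110 cuticle collagens 2 rose (dpy-17 and col-76), 1 fell (col-103) and the median was −0.42. In the RNA interference machinery 1 of 43 fell, ppw-2 (log2 −1.05 ± 0.24, adjusted p = 0.0416), and no gene was called among 18 of propionate breakdown, 22 of glycolysis, 5 vitellogenins and 10 aspartyl proteases. With the set as a block 2 glycolysis genes rose and 1 fell, and 1 aspartyl protease gene rose. The glyoxylate cycle gene icl-1 was uneven in control (3499, 3325, 8356 and 7818 under oxygen, against 936, 1221, 3224 and 360.2 in control, adjusted p = 0.0661, or 0.0377 under the set block). The call of dpy-17 was lost without oxygen 1, 2 or 3 or control 1, 2 or 3 (adjusted p = 0.0562 to 0.0861). The call of col-103 was lost without any 1 of the 8 arrays (adjusted p = 0.0701 to 0.115). The call of ppw-2 was lost without oxygen 1, 2, 3 or 4 or control 1, 2 or 3 (adjusted p = 0.0549 to 0.123). Scaling by median centring ended the calls of dpy-17 (adjusted p = 0.338), col-76 (0.13) and ppw-2 (0.0685), and after quantile normalization dpy-17 (0.0753) and col-103 (0.0598). Paired by number on the 8 arrays alone, dpy-17 (adjusted p = 0.0755) and ppw-2 (0.0736) missed the threshold.

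Summed markers of several tissues differed between the sets of arrays. The summed signal of 31 oocyte and germ line markers was 70510, 76431, 72686 and 83983 on the oxygen arrays, against 82554, 83505, 93787 and 119066 on the control arrays, and 30 of the 31 had a negative change (median −0.38). The called member was glh-1, a germ granule helicase gene (719.7, 829, 872 and 529 under oxygen, against 1419.8, 1444, 1560.1 and 1262 in control). The other probe set of glh-1 was not called (log2 −0.85, adjusted p = 0.052). Sperm markers, 46 genes with 0 called, summed to 9303, 7444, 32249 and 52556 under oxygen, against 6808, 5622, 19009 and 44369 in control. They were far brighter in set 2 than in set 1 in both groups, and the median change of their genes was log2 0.43 in set 1 and 0.51 in set 2. Markers of the pharynx (15 genes), neurons (17), body wall muscle (17), epidermis (15) and of embryos and larvae (11) gave 0 calls. Their medians were 0.33, 0.40, 0.05, −0.09 and −0.14, and after median centring −0.03, 0.04, −0.32, −0.45 and −0.50, where the median of all genes moved to −0.31 as well. The part of tissue make-up in the changes above was not tested. The call of glh-1 was lost without oxygen 1 or 4 or control 1, 2 or 3 (adjusted p = 0.0601 to 0.0767). After median centring the call of glh-1 (adjusted p = 0.199) was lost. With the number as a block on the 8 arrays alone, glh-1 (adjusted p = 0.0519) lost the call.

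The size of the oxygen change was compared between the sets with an interaction term in limma. No probe set differed at an adjusted p under 0.05 (0%), and 917 of 15393 had an unadjusted p under 0.05. Among called genes the fitted difference was most in favour of set 2 for F53B2.8, which was at 1503, 642, 4374 and 3157 under oxygen, against 68.7, 103, 26.4 and 5.5 in control (log2 3.55 in set 1 and at least 91.1-fold in set 2, adjusted p of the difference = 0.532). Next were C49G7.10, kgb-2, C08E8.4 and fbxa-162. In these 5 genes control 3 or 4 was the dimmest control and oxygen 3 or 4 the brightest exposed array, and C08E8.4 read 287, 338, 593 and 374 under oxygen, against 20.9, 59.8, 5.5 and 3.2 in control. Increases fitted as larger in set 1 included cyp-14A4 (at least 12.9-fold in set 1 and at least 2.63-fold in set 2) and F56D5.3. For F53B2.8, kgb-2, C08E8.4 and fbxa-162 both set 2 controls, and for cyp-14A4 all controls, were below the detection stand-in, so the size of those differences and their order were not measured. Among lowered genes, pud-3 was at 142, 671, 69.5 and 64.2 under oxygen, against 1302, 1251, 1552 and 2381 in control, which is log2 −2.05 in set 1 and −4.85 in set 2, with oxygen 2 the brightest exposed array. For clec-56 the values were 68.5, 22.5, 4.5 and 9.4 under oxygen, against 262, 184, 275 and 428 in control (log2 −2.48 in set 1 and a fall of at least 7.24-fold in set 2). With 2 arrays per group in a set, a p that misses the threshold does not show that the sets responded alike. The call of fbxa-162 was lost without oxygen 4 (adjusted p = 0.0504). The call of pud-3 was lost without oxygen 3 or 4 or control 1, 2 or 4 (adjusted p = 0.0503 to 0.067). The call of clec-56 was lost without oxygen 4 (adjusted p = 0.0525). The paired fit of the 8 arrays alone ended the calls of F53B2.8 (adjusted p = 0.06), fbxa-162 (0.0748) and pud-3 (0.0764).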

How the data were processed

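Biotin-labelled RNA of whole worms was hybridised to 11 Affymetrix C. elegans Genome Arrays, 1 per sample. The deposited values are linear intensity values, 1 MAS5 signal per probe set and array, which, per the submitters' processing notes, the authors computed by the MAS5 algorithm of the GCOS 1.4 software. The scaling target is not given in the sources used here, and no detection calls were used.

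Of 22625 probe sets, 77 control probe sets were set aside. Signals were taken as log2 with a floor of 0.1, and 15393 probe sets at or above their array's 40th percentile on at least 3 of the 11 arrays were tested, without further scaling. A limma model (limma 3.58.1, R 4.3.3, lmFit and eBayes) had 1 mean per group over all 11 arrays, so the 3 skn-1 RNA interference arrays entered the estimate of the spread. All 3 belong to set 2 and so carry no difference between the sets. Their mean correlation within the group was 0.94 to 0.941, against 0.847 to 0.896 for oxygen and control arrays. Without them 306 probe sets were called higher and 40 lower, and the cause of that drop was not tested. P-values were adjusted by Benjamini-Hochberg over all tested probe sets, and a call is an adjusted p under 0.05. The fit was also run on simulated data with independent noise on each array and no difference between the sets. That run could not cover the shared deviations of arrays in a set. Probe sets were named through the platform annotation: 20766 had 1 gene, 887 several and 895 none. Each gene was represented by its single-gene probe set of highest mean log2 signal. The number of arrays limits the precision.

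Named genes were skn-1 and gst-4, the 20 largest increases and 15 largest decreases without overlap between groups, the 10 largest gains and losses of mean signal, the 5 largest differences between sets in each direction, and up to 4 called members of each list by adjusted p, or the first 2 where none was called. Other called list members are named without values, and genes beside a named gene were chosen after their values were seen. The members, the 53 gene lists and the 8 marker lists were chosen with earlier results of these data known. Same-numbered oxygen and control arrays deviated together from their group means (correlations 0.565, 0.449, 0.489 and 0.522 for numbers 1 to 4). The numbers were therefore taken to pair the samples in the fits with the replicate number as a block. The main fit, which gave the calls, held neither the pair nor the set. Differently numbered arrays of the same set correlated at 0.346 to 0.533, which overlaps that range. Pairing by number was thus not told apart from sharing a set. Arrays of different sets correlated at −0.529 to −0.37. Alternatives were the 8 arrays alone, the set or the replicate number as a block, each set alone, quantile normalization, median centring, log2 of signal plus 16, other filters and each array left out.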

Additional observations from a re-analysis of the deposited data

Results flagged for a closer look

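Single arrays that stood far from the other 3 of their group were sought among the named genes, by Dixon's gap test at the 95% level in 364 groups of 4 arrays. Chance flags about 1 in 20 groups, and each group joined arrays of both sets, which were scaled differently. The test flagged 22 groups, near that rate, and no cause was tested. Under oxygen, array 3 stood high for the ferritin gene ftn-1 at 3727.4 (the others 799 to 885) and for fipr-26 at 2186.1 (the others 604 to 643). Oxygen 4 stood high for msra-1 at 3038.2 (the others 1432 to 1471) and the ribosomal protein gene rps-12 at 6190 (the others 5473 to 5569.8), and low for fipr-24 at 60.5 (the others 176 to 208). Oxygen 1 stood low for nhr-22 at 131 (the others 198 to 205). Among control arrays, 12 of the 16 flags fell on control 4, the array with the lowest correlation to its group. Of genes raised under oxygen control 4 stood low for C49G7.10 at 5.1 (the others 56.5 to 86.4), fbxc-58 at 6.4 (the others 31.7 to 33.4), skr-5 at 3.3 (the others 15.7 to 21.5), dap-1 at 510.8 (the others 1544 to 1834) and dhs-18 at 124.2 (the others 236 to 264). For C49G7.10, fbxc-58 and skr-5 the flagged signal was below the 40th percentile of control 4, 45.6, so its distance was not measured. Of genes not called changed control 4 stood high for hsp-70 at 48.8 (the others 4.5 to 5.5, all below the detection stand-in), ldh-1 at 1369.5 (the others 1071 to 1090.3), ech-6 at 5770.6 (the others 3326 to 3620.3), rps-12 at 10020.8 (the others 6136 to 6375), ung-1 at 671.7 (the others 404 to 421) and vit-4 at 16553.3 (the others 10349 to 10939). It stood high for the lowered trehalase gene tre-2 at 696.2 (the others 359 to 386). Control 3 stood high for skn-1 at 796.7 (the others 442 to 454) and gst-30 at 48.6 (the others 17.8 to 19.9). It stood low for asp-8 at 16.8 (the others 32.3 to 33.8), which is below its 40th percentile, 36.5. Control 1 was low for sqst-1 at 245.2 (the others 327 to 343).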

How the results depend on the processing

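The counts over all probe sets moved with the choices. Against 507 higher and 83 lower, the fit on the 8 arrays alone called 306 and 40, and the set as a block 1137 and 287. The comparison within set 1 called 278 and 31, and that within set 2 called 702 and 150. Median centring called 221 and 73, no filter 356 and 39, and the 60th percentile filter 526 and 139. Leaving out 1 array gave 284 to 522 higher and 41 to 73 lower, with the fewest higher calls without oxygen 3 and the fewest lower calls without control 1. The replicate number as a block gave 565 and 93, and on the 8 arrays alone, an alternative chosen after seeing the data, 527 and 69. Of the 137 called named genes, the replicate block ended 13 calls, that block on the 8 arrays alone 30, and the set block none. The fit on the 8 arrays alone ended 37, the comparison within set 1 ended 66 and that within set 2 ended 25. Quantile normalization ended 22, median centring 57, no filter 28, and leaving out 1 array 14 to 39. None of them reversed its direction under any alternative run. Of 45 named genes not called, 17 were called with the set as a block. Directions reversed for uncalled genes near zero. The change of skn-1 was 0.0199 within set 1, and −0.1937 to 0.1617 with 1 array left out. That of ung-1 was 0.0028 within set 1. That of vit-4 was 0.0125 after quantile normalization, and −0.1297 to 0.0962 with 1 array left out. The causes of these shifts were not tested, beyond the smaller number of arrays in the fits on 8 arrays or 1 set. Signals below an array's 40th percentile carry no order, which limits folds of dim genes to bounds.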
